A study of Mus musculus with 21 samples.

Results

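The genes described here are 37 interferon-stimulated genes, measured in mouse prostate tumours on Illumina bead arrays. The list is fixed by name and was chosen with earlier results of these data known. Interferons are secreted proteins that warn cells of virus and of misplaced nucleic acid. Type I and type III interferons act through receptor-bound JAK kinases on STAT2 and its STAT partner, which join IRF9 in a complex that binds the interferon-stimulated response element (ISRE) of target genes, while type II interferon acts on STAT dimers that bind the gamma-activated site (GAS). The target genes encode antiviral enzymes, RNA sensors, GTPases and ubiquitin-like modifiers, and also IRF7, which increases interferon production, and USP18, which dampens the receptor. In tumours such genes are used as a readout of interferon signalling in both the tumour cells and the cells around them.

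Of the 37 genes, 35 had a named probe and 33 were tested among 12570 genes. Ifit1 and Xaf1 were named but detected on 0 arrays, and Ifi44 and Herc6 are not named in the probe table and were not analysed here. Each gene was taken from its brightest probe. Levels are log2 of the background-corrected, quantile-normalized bead intensity, so that a difference of 1 is a 2-fold change, and levels of different genes are not compared because each probe has its own response.

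The tumours came from the anterior prostate of mice and fell into 4 groups: NPK at 3 months (NPK_3Month, 2 arrays, called late by the labels), NPK at 1 month (NPK_1Month, 3 arrays, called early), NPK with no stage given (8 arrays) and NP (8 arrays). The labels give NP and NPK as genotypes and do not spell out the alleles. The NP samples are tumours as well and not normal tissue. Replicates 4 and 5 of NP agreed more closely than any other pair of one group and were counted as 1 sample, which gave NP n = 7 and 20 samples in all. The labels do not settle whether the samples were separate animals, and a p-value therefore speaks of the spread among these arrays, which may be technical. Between 15855 and 20405 probes were detected per array, fewest in the NPK group (15855 to 18226).

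The 1-month and 3-month arrays shared a chip (chip 6) that held no NP or NPK array. Every other comparison set arrays of different chips against each other, and there chip and group cannot be told apart.

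Upstream sequences are shown first, for 9 of the listed genes in which the letters of the ISRE core were found. RefSeq windows on GRCm38.p6 were found for 28 of the 37 genes, and the 250 bases before the start of the transcript were searched on both strands. The core of the ISRE, that is GAAA, any 2 bases and GAAA again (TTTC, any 2 bases and TTTC on the other strand), was found in 12 of the 28 genes (42.9%), against 3.46% of all 27025 genes in the table. The GAS letters TTCNNNGAA were found in 6 of the 28 (21.4%), against 8.13% of all genes, and 1 GAS match, in Bst2, overlapped an ISRE match. In the following stretches of 80 bases the capitals mark the ISRE letters on either strand; overlapping matches run together.

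Isg15, a ubiquitin-like protein that is joined to other proteins, and Rsad2, the antiviral enzyme viperin, carried 3 and 1 matches in the stretch shown.

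Isg15 promoter, chr4:156200846-156200925 (- strand): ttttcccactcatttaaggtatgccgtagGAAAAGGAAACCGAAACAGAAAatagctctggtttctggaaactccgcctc

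Rsad2 promoter, chr12:26456528-26456607 (- strand): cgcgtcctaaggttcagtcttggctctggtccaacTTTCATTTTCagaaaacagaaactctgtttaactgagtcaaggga

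Ifit3, which binds in complexes on foreign RNA, carried 2 separate matches, and Oas3, an enzyme that makes the second messenger 2-5A, carried 1.

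Ifit3 promoter, chr19:34583355-34583434 (+ strand): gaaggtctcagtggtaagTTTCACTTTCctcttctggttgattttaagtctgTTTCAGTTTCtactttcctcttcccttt

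Oas3 promoter, chr5:120777690-120777769 (- strand): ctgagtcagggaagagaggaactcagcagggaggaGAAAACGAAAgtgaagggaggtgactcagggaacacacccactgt

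Stat2, a subunit of the complex that itself reads the element, carried 1 match, farther from the start than the others shown.

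Stat2 promoter, chr10:128270248-128270327 (+ strand): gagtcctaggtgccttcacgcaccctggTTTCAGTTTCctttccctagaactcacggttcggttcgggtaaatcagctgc

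Among the interferon-inducible GTPases, which act against pathogens held in vacuoles, Gbp3 and Irgm1 carried 2 overlapping matches each, and Gbp2 and Igtp carried 1 each.

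Gbp3 promoter, chr3:142559964-142560043 (+ strand): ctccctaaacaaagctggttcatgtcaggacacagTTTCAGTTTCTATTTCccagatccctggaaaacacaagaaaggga

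Gbp2 promoter, chr3:142620569-142620648 (+ strand): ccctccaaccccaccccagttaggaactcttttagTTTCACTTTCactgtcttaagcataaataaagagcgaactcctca

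Igtp promoter, chr11:58199476-58199555 (+ strand): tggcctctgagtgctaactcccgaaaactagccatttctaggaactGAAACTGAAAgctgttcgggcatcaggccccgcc

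Irgm1 promoter, chr11:48871421-48871500 (- strand): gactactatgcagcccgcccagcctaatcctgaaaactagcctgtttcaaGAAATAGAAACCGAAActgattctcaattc

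A match of letters is a description of the window and not evidence that a factor binds there. The 12 genes with the ISRE letters were Bst2, Gbp2, Gbp3, Ifit1, Ifit3, Igtp, Irgm1, Isg15, Oas1a, Oas3, Rsad2 and Stat2.

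Setting NPK_3Month against NPK_1Month asks how the tumours differ between an early and a late stage. The interferon-stimulated genes were lower in the late tumours almost throughout: 26 of 33 fell and 0 rose (limma, Benjamini-Hochberg adjusted p under 0.05), where 9.77% of all genes tested fell and 9.44% rose. The median change of the 33 genes was -2.46 on the log2 scale, against 0.02 for all genes, and single genes ran from -4.50 for Oas2 to -0.21 for Ifih1. Both 3-month arrays lay below all 3 of the 1-month arrays for 29 of 33 genes, as they did for 24.3% of all genes. Because these are bulk tissue samples, fewer expressing cells and less RNA per cell cannot be told apart. Of the 26 calls, 13 held in each of 16 other settings (Dhx58, Dtx3l, Eif2ak2, Gbp3, Ifi35, Ifit3, Irf9, Oas2, Oasl2, Parp14, Rsad2, Trim25 and Usp18). The count was 19 without NPK_3Month replicate 1, and 16 with the authors' processed values.

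**Figure D1:**
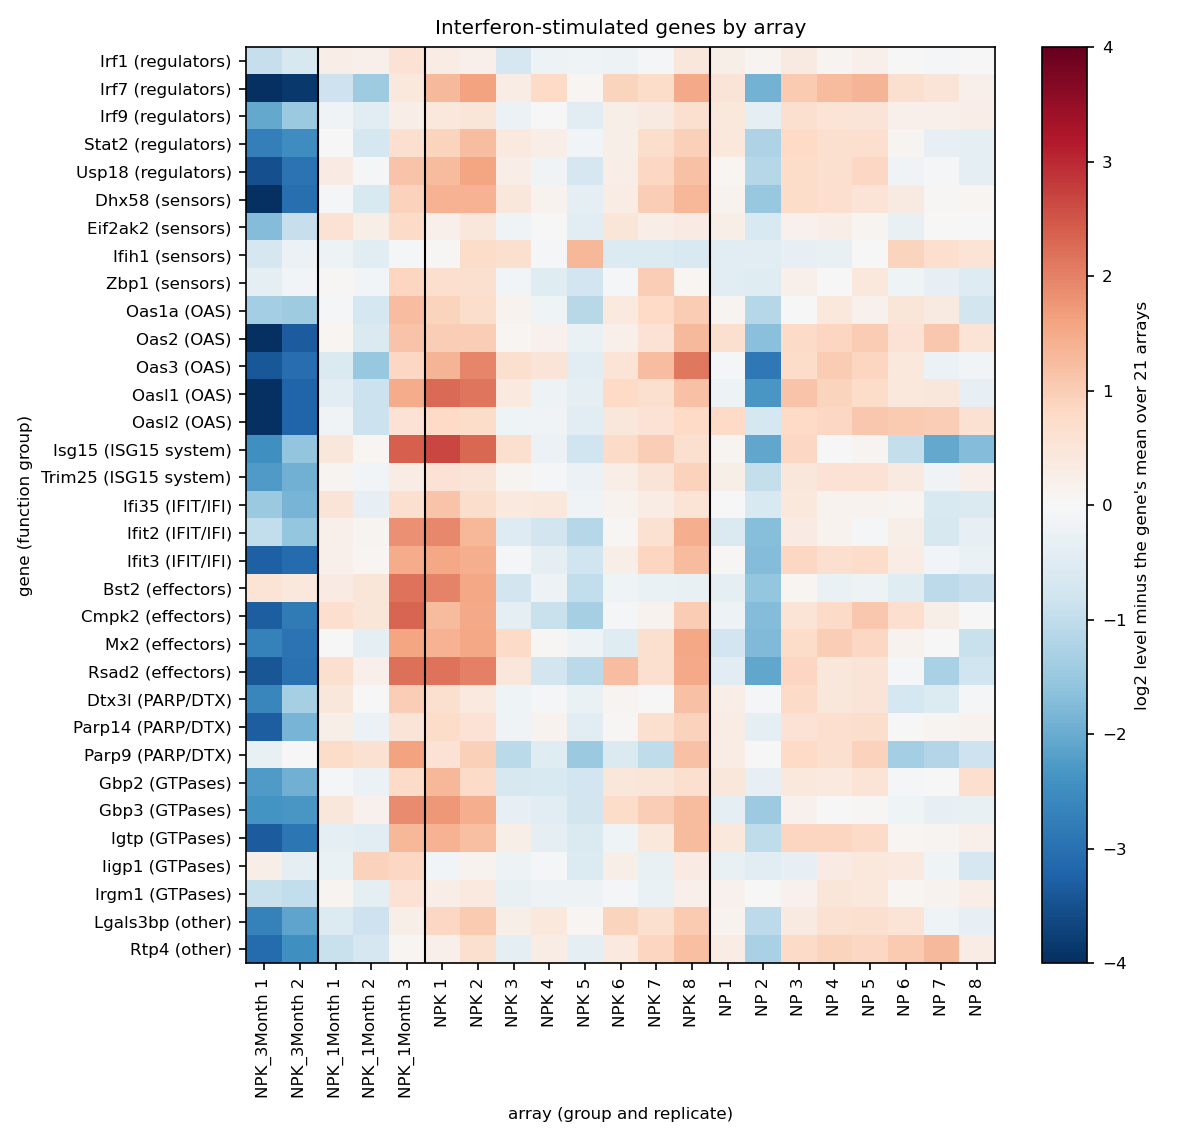
Level of each of the 33 tested genes (down the page, with function group) on each of 21 arrays (across), as log2 level minus the gene's own mean over the 21 arrays; red is higher, blue is lower, and vertical lines divide the groups. Both 3-month arrays are blue for nearly all genes; Ifih1 and Zbp1 are pale, Parp9 and Iigp1 have 1 array near or above the gene's mean, and Bst2 is above its mean on both, while NP replicate 2 is the lowest of the NP arrays for most genes.

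All 5 regulators of the response fell. Usp18, the protease that removes ISG15 and restrains the type I receptor, was at 9.41 and 9.97 in NPK_3Month, at 13.22, 12.83 and 14.06 in NPK_1Month, at 12.23 to 14.47 (median 13.46) in NPK and at 11.78 to 13.64 (median 12.82) in NP. The 3-month arrays were the lowest of all, and the other groups overlapped. It was 12.9-fold lower at 3 months than at 1 month (log2 change -3.68 ± 0.59 SE, adjusted p 0.0003).

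Irf7, the factor that drives interferon-alpha genes, averaged 6.48 ± 0.98 in NPK_3Month and 10.42 ± 0.94 in NPK_1Month (SD, n = 2 and 3), and was 15.3-fold lower (log2 change -3.94). Stat2 was 6.03-fold lower, and Irf9, its DNA-binding partner, 3.15-fold lower. Irf1, a factor induced mainly by type II interferon, fell least of the regulators, by 1.13 on the log2 scale, and its 3-month arrays (11.86 and 12.14) reached into the range of the NPK arrays, whose lowest was 12.09.

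The 2-5A synthetase family gave some of the largest differences, with 4 of 5 genes falling. Oasl2, a relative of the 2-5A synthetases with a ubiquitin-like tail, was at 8.21 and 9.46 in NPK_3Month, at 12.50, 11.79 and 13.23 in NPK_1Month, at 12.22 to 13.44 (median 13.17) in NPK and at 11.93 to 13.68 (median 13.46) in NP. The gap below the lowest of the other 18 samples was larger than the distance between the 3-month arrays. The fall was 12.8-fold (log2 change -3.67 ± 0.52 SE, adjusted p 0.0001). Oas2 was 22.6-fold lower, and here the 3-month arrays were far apart, at 6.96 and 8.87. Oas3 was not detected on either 3-month array but was detected on all 3 of the 1-month arrays. Its fall is therefore given as a bound for this processing only, at least 4.59-fold lower. The call was lost in 10 of 16 other settings, with a change of -0.84 (log2) from the authors' processed values. Oasl1, detected on 1 of 2 of the 3-month arrays, was 15.7-fold lower. Oas1a was not detected on either 3-month array but was detected on 2 of 3 of the 1-month arrays. Because the 1-month arrays were not all detected, no bound is given. Oas1a did not pass (adjusted p 0.0719).

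In the ISG15 system all 3 tested genes fell, Usp18 among them, which is already counted with the regulators. Isg15 was at 8.80 and 9.66 in NPK_3Month, at 11.68, 11.31 and 13.63 in NPK_1Month, at 10.44 to 13.92 (median 11.94) in NPK and at 9.16 to 12.06 (median 10.28) in NP. The 3-month arrays were below every 1-month and NPK array, and overlapped NP. Isg15 was 7.88-fold lower, with a wide error (log2 change -2.98 ± 0.97 SE, adjusted p 0.0379), and the call was lost in 9 of 16 other settings. Trim25, a ubiquitin ligase that acts on the RNA sensor RIG-I, was 4.59-fold lower.

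Among the IFIT and IFI genes 2 of 3 tested fell. Ifit3 was at 10.44 and 10.62 in NPK_3Month, at 13.91, 13.75 and 15.16 in NPK_1Month, at 12.90 to 15.23 (median 14.24) in NPK and at 11.95 to 14.53 (median 13.74) in NP. The 3-month arrays agreed closely and lay below all others. The fall was 13.4-fold (log2 change -3.75 ± 0.71 SE, adjusted p 0.0010).

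Ifi35, a partner of NMI in signalling, was at 8.78 and 8.40 in NPK_3Month, at 10.78, 9.93 and 10.91 in NPK_1Month, at 10.13 to 11.40 (median 10.66) in NPK and at 9.65 to 10.70 (median 10.26) in NP. Again the 3-month arrays stood below the rest, 3.87-fold under the 1-month mean (adjusted p 0.0010). Ifit2 had a change of similar size (-1.97) and did not pass (adjusted p 0.0921).

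Of 4 antiviral effectors, 3 fell. Rsad2 was at 8.50 and 8.92 in NPK_3Month, at 12.55, 12.12 and 14.12 in NPK_1Month, at 10.82 to 14.09 (median 12.85) in NPK and at 9.83 to 12.78 (median 11.45) in NP. Cmpk2, a mitochondrial nucleotide kinase whose gene neighbours Rsad2, was at 6.46 and 6.93 in NPK_3Month, at 10.42, 10.23 and 12.08 in NPK_1Month, at 8.41 to 11.27 (median 9.80) in NPK and at 8.01 to 10.68 (median 9.98) in NP. In the fit reported, both neighbours fell by nearly the same amount, 18.7-fold for Rsad2 (adjusted p 0.0029) and 18.6-fold for Cmpk2 (adjusted p 0.0011). Their 3-month arrays lay below all others. With the authors' processed values Cmpk2 changed by -2.73 (log2) and did not pass (adjusted p 0.0545). Rsad2 kept its call in 16 other settings, with changes from -4.63 to -3.63. Mx2, a dynamin-like GTPase, was 9.33-fold lower. Bst2, the tetherin that holds budding virus at the cell surface, did not pass: it was at 8.58 and 8.46 in NPK_3Month, against 8.36, 8.53 and 10.20 in NPK_1Month (log2 change -0.51, adjusted p 0.712), and without NPK_1Month replicate 3 the change was 0.07.

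The RNA and DNA sensors were divided. Eif2ak2, the kinase PKR that stops translation on double-stranded RNA, was at 10.41 and 11.21 in NPK_3Month, at 12.72, 12.36 and 12.90 in NPK_1Month, at 11.67 to 12.63 (median 12.37) in NPK and at 11.52 to 12.38 (median 12.16) in NP. It fell 3.61-fold (log2 change -1.85 ± 0.30 SE, adjusted p 0.0003), with both 3-month arrays below all others. Dhx58, the RIG-I-like receptor LGP2, fell by 3.58 on the log2 scale. Zbp1, a sensor of left-handed nucleic acid, changed by -0.51 (adjusted p 0.462), and Ifih1, the sensor MDA5, was not detected on any of the 5 month arrays.

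Of the ADP-ribosyltransferase group, Parp14 and Dtx3l fell and Parp9 did not pass. Parp14 was at 9.39 and 10.85 in NPK_3Month, at 12.93, 12.45 and 13.20 in NPK_1Month, at 12.27 to 13.60 (median 13.06) in NPK and at 12.29 to 13.37 (median 12.84) in NP. The 3-month arrays differed by more than the 1-month arrays did, yet both were below all others, and the fall was 6.70-fold (adjusted p 0.0002). Dtx3l, a ubiquitin ligase that pairs with PARP9, was 5.51-fold lower, and Parp9 itself changed by -1.13 (adjusted p 0.341).

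Of 5 interferon-inducible GTPases 4 fell. Igtp was at 7.71 and 8.17 in NPK_3Month, at 10.70, 10.64 and 12.38 in NPK_1Month, at 10.47 to 12.45 (median 11.38) in NPK and at 10.03 to 11.91 (median 11.27) in NP. Irgm1, a regulator of the other immunity-related GTPases, was at 12.38 and 12.28 in NPK_3Month, at 13.37, 12.88 and 13.83 in NPK_1Month, at 12.95 to 13.63 (median 13.14) in NPK and at 13.25 to 13.70 (median 13.43) in NP. Neither gene's 3-month arrays overlapped another group, but the sizes differed: Igtp was 9.85-fold lower (adjusted p 0.0011) and Irgm1 2.04-fold lower (adjusted p 0.0057). Gbp3 and Gbp2, guanylate-binding proteins, were 9.19-fold and 4.68-fold lower. Iigp1 was not detected at 3 months but was detected on 2 of 3 arrays at 1 month. Because the 1-month arrays were not all detected, no bound is given. NPK_1Month replicate 1, at 4.89, lay below NPK_3Month replicate 1, at 5.37. Iigp1 did not pass (adjusted p 0.308).

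Both remaining genes fell. Lgals3bp, a secreted glycoprotein that binds galectins, was at 11.33 and 11.92 in NPK_3Month, at 13.49, 13.20 and 14.27 in NPK_1Month, at 14.11 to 15.08 (median 14.77) in NPK and at 12.99 to 14.66 (median 14.18) in NP. The 3-month arrays were below all others, and 4.10-fold under the 1-month mean (adjusted p 0.0022). Rtp4, a receptor transporter induced by interferon, was not detected on either 3-month array and was at least 3.88-fold lower in this processing. With the authors' processed values its change was -0.62 (log2), and it did not pass (adjusted p 0.0626).

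**Figure D2:**
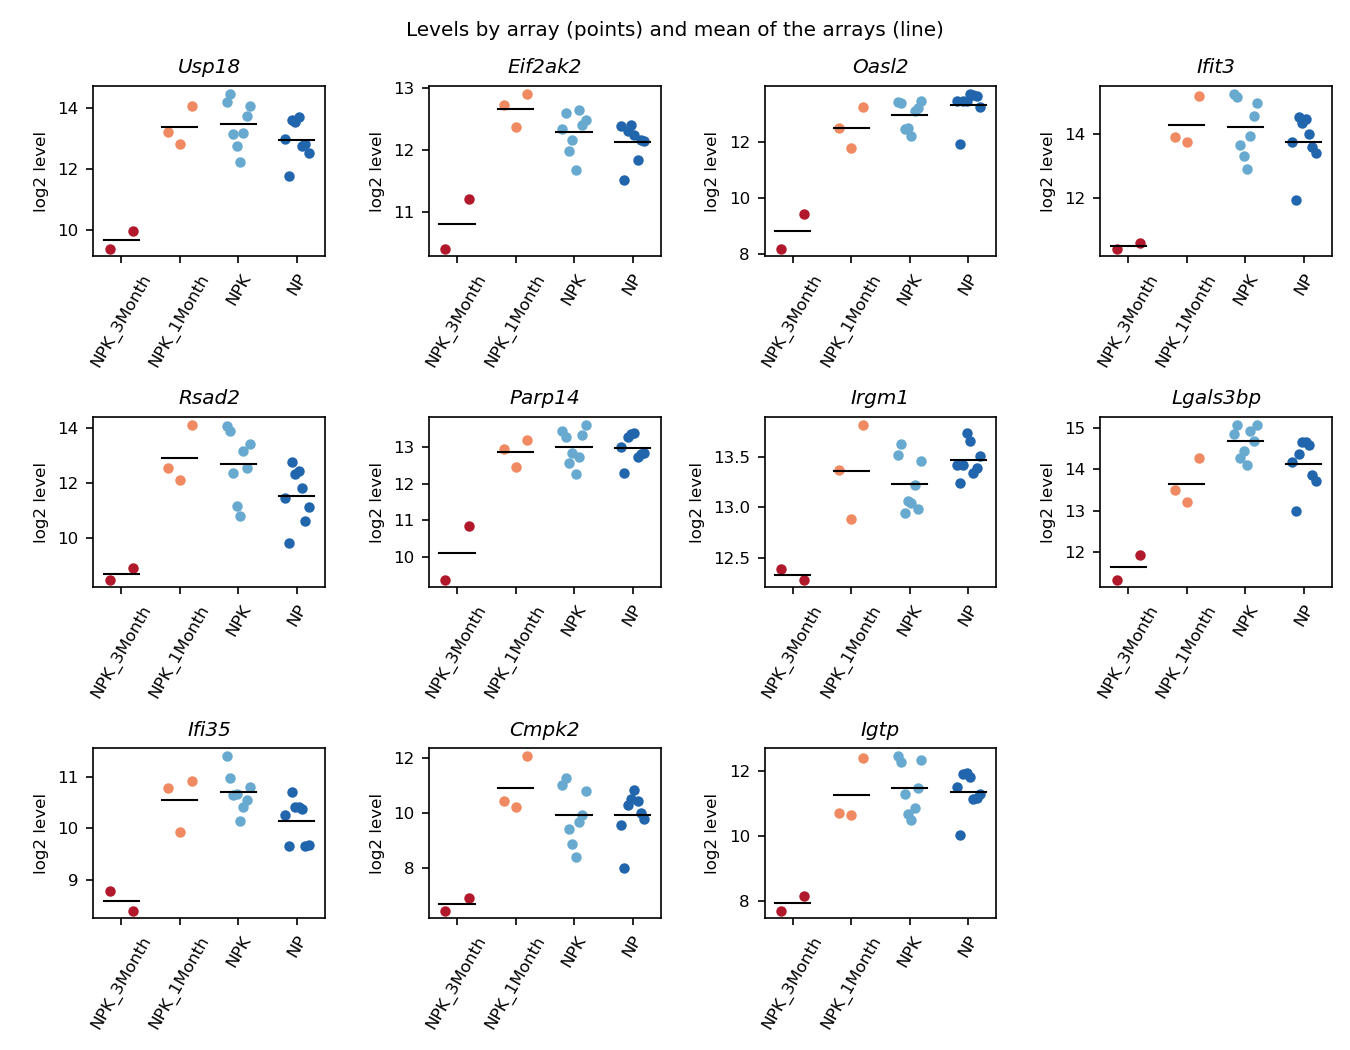
Log2 level of 11 genes on each array (points), by group from NPK_3Month at the left to NP at the right, with the mean of the arrays as a line; each panel has its own vertical axis. In every panel both 3-month points lie below the lowest point of the other 3 groups.

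The second probes mostly fell too, but not all by a similar amount. For 14 of the 26 genes that fell, 22 further probes were detected, 21 of them had a negative change, and 14 were within 0.5 of the probe used. Their changes ran from -4.21 to 0.06, the last being a second probe of Dtx3l, whose probe used changed by -2.46. A second probe of Trim25 changed by -0.21, against -2.20 for the probe used. These second probes of Dtx3l and Trim25 were dim, detected on 11 and 12 of 21 arrays.

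Taken 1 array at a time, each 3-month tumour was low in the listed genes. Over genes with a mean level above 9.5, these 2 arrays differed more than any other pair within a group. The SD of their log2 difference was 0.845, and 487 of 4011 genes were over 2-fold apart. The fit takes 1 spread per gene from all groups. Replicate 1 had a median difference of -2.71 from the 1-month mean over the 33 genes, with 33 of 33 lower and 28 over 2-fold lower, where 14.1% of all genes were that low. Replicate 2 had a median of -2.14, with 32 of 33 lower and 27 over 2-fold lower, where 10% of all genes were. Replicate 1 was the lower of the pair for 26 of 33 genes, by up to 1.91 for Oas2. The mean level over the 33 genes was 8.04 in replicate 1 and 8.51 in replicate 2 of NPK_3Month, against 10.52, 10.21 and 11.51 in NPK_1Month.

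**Figure D3:**
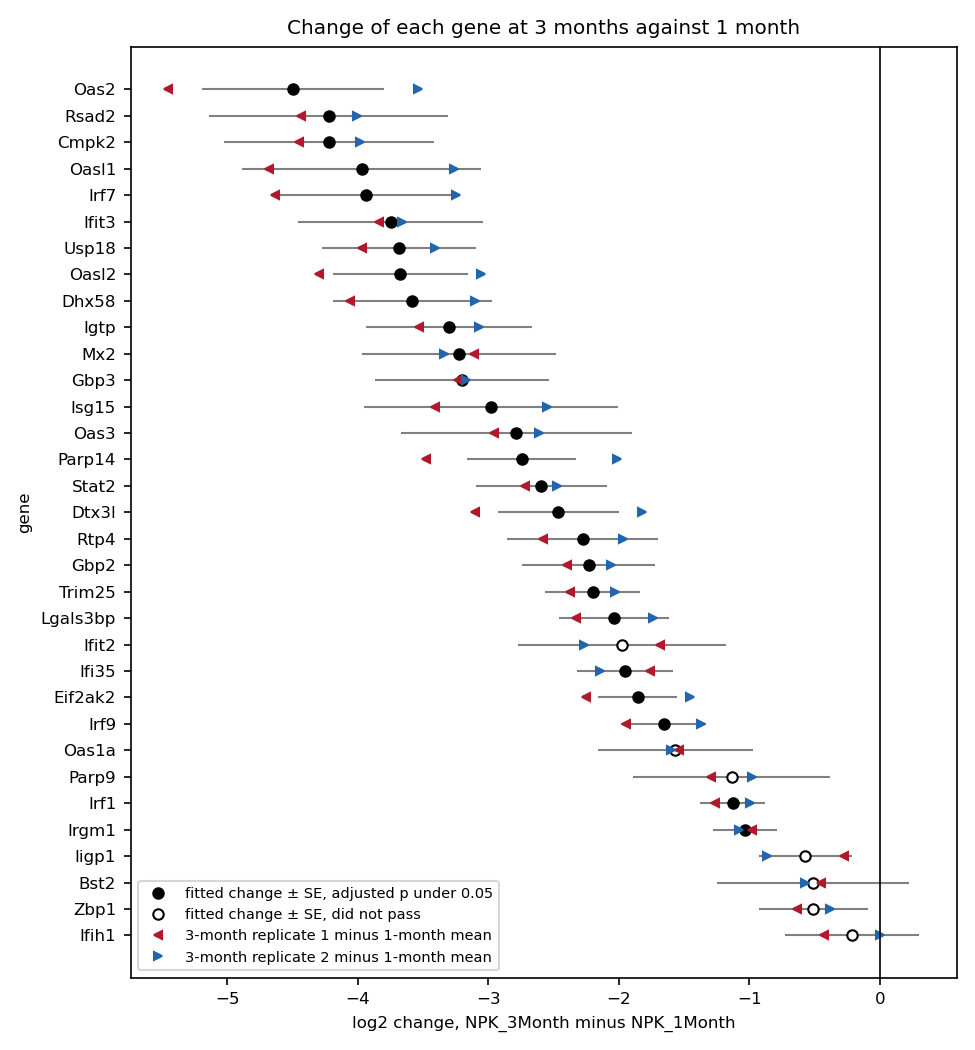
Log2 change of each gene, NPK_3Month minus NPK_1Month, with filled circles for adjusted p under 0.05, open circles otherwise, bars for the SE, and triangles for each 3-month array minus the 1-month mean. All 33 circles are left of 0, and the triangles lie farthest apart for Oas2, at -5.45 and -3.54.

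The late tumours were also low against the other groups. Both 3-month arrays were below the lowest of all 18 other samples for 25 of 33 genes, as for 9.97% of all genes. Among these genes, Oas1a and Oas3 were undetected on both 3-month arrays and in NP replicate 2. Their order against that sample is therefore within the noise. Against NPK alone the count was 26 (17.4% of all genes), and against NP alone 26 (26.4% of all genes). The 8 genes that did not lie below all others were Irf1, Isg15, Ifit2, Ifih1, Bst2, Parp9, Zbp1 and Iigp1. These comparisons cross chips.

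Genes with and without the ISRE letters were lower at 3 months. Of 11 tested genes with the letters 9 fell, with a median change of -2.78 (range -4.22 to -0.51). Of 13 tested genes whose window lacked them 11 fell, with a median of -2.03 (range -4.22 to -0.21), and 6 of the 9 genes without a window fell, with a median of -2.74.

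The rest of the pathway was examined through lists of other genes, likewise chosen with earlier results of these data known. For each of these lists the shares over all genes at 3 months were 9.77% lower and 9.44% higher. Of 30 other interferon-stimulated genes tested, 19 fell at 3 months and 0 rose, with a median of -2.05. Oas1g, a 2-5A synthetase, changed by -4.35, Irgm2, a GTPase, by -3.05, and Trafd1, a feedback regulator, by -1.74. Nlrc5, the activator of MHC class I genes, was not detected on either 3-month array but was detected on all 3 of the 1-month arrays. Of 10 receptors, kinases and their inhibitors, 2 fell: Ifnlr1, the type III interferon receptor (log2 change -2.89), and Tyk2, the kinase of the type I receptor (-0.57). For Ifnlr1 the 3-month arrays were far apart, at 6.29 and 8.99, against 10.59, 10.51 and 10.47 in NPK_1Month. Of 17 sensors, adaptors and further factors 5 fell, among them Ddx58, the sensor RIG-I (-2.48), Adar, which edits double-stranded RNA (-1.46), Myd88, the adaptor of toll-like receptors (-0.57), and Sting1, the adaptor of cytosolic DNA sensing (-0.95). Of 9 interferon genes with a named probe only Ifna1 and Ifne were detected on enough arrays, and neither passed at 3 months. Ifne, an epithelial interferon, was not detected at 3 months but was detected on 3 of 3 arrays at 1 month (adjusted p 0.111).

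Markers of some cell types moved with this comparison and those of others did not. All 6 tested T and NK cell markers were undetected on both 3-month arrays (Cd3d, Cd3e, Cd3g, Cd2, Nkg7 and Klrb1c). Of these, Klrb1c was undetected at 1 month as well. Their summed level was 72.1 to 107 in NPK_3Month, against 227 to 513 in NPK_1Month, and 0 of 6 passed the test. Sums are in intensity units from which the offset of 16 per probe was subtracted. Of 10 epithelial markers 5 fell (Cdh1, Esrp1, Spint1, Cldn4 and Krt14), and the summed level was 32442 to 46688 in NPK_3Month and 96268 to 117105 in NPK_1Month; Epcam was undetected at 3 months. Of 4 prostate markers 2 fell (Acpp and Tmprss2), with sums of 205 to 3453 in NPK_3Month and 9332 to 13890 in NPK_1Month. Tgm4 and Msmb were undetected at 3 months, Tgm4 at 1 month as well. Of 8 seminal vesicle secretory genes 5 fell, with sums of 429 to 19046 in NPK_3Month and 111189 to 262262 in NPK_1Month. Macrophage markers overlapped, at 20520 to 28532 in NPK_3Month and 26148 to 40189 in NPK_1Month, with 1 of 11 falling. Fibroblast sums were 9248 to 18209 in NPK_3Month and 20660 to 37370 in NPK_1Month, with 1 of 8 markers falling (Dcn). B and plasma cell sums were 6208 to 6694 in NPK_3Month and 9821 to 14640 in NPK_1Month, with 1 of 5 falling (Xbp1). Cd79b, Ms4a1 and Cd22 were undetected at 3 months, Ms4a1 and Cd22 at 1 month as well. The 3-month sum therefore came from the remaining probes, Xbp1 among them, and is not read as B cell content. Of 6 plasmacytoid dendritic cell markers, Siglech and Ly6d fell, Tcf4 rose, and Irf8 was undetected at 3 months. Their sums without Bst2 overlapped, at 11315 to 20972 in NPK_3Month and 14907 to 19530 in NPK_1Month. For 8 endothelial, 5 neutrophil and 5 conventional dendritic cell markers the sums overlapped as well, and 0 passed. The part of these cell types in the fall of the interferon-stimulated genes was not tested.

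In the other groups the seminal vesicle sums were 1272 to 249580 in NPK and 117 to 19269 in NP, and the T and NK sums were 359 to 1247 in NPK and 1067 to 4889 in NP. All 6 T and NK markers were lower in NPK_1Month than in NP and in NPK than in NP, where 19.7% and 18.3% of all genes fell.

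NPK at 1 month against NP asks how early NPK tumours differ from NP tumours. Here 1 of 33 genes rose and 0 fell, where 17.8% of all genes rose and 19.7% fell, and the median change was 0.25 for the listed genes and 0.00 for all genes. The gene was Bst2, at 8.36, 8.53 and 10.20 in NPK_1Month, against 6.49 to 8.11 (median 7.54) in NP, with no overlap (log2 change 1.65 ± 0.55 SE, adjusted p 0.0253). All NPK_1Month arrays were above all NP samples for 2 of 33 genes (18.1% of all genes) and below them for 0 (19.6% of all genes). Bst2 is also listed as a plasmacytoid dendritic cell marker, and the call was lost in 6 of 22 other settings, among them chip as a random block, each of the NP chips left out, and the fit without NPK_1Month replicate 3, where the change was 1.06. Isg15 had a larger change, 1.80, with an SE of 0.74 and an adjusted p of 0.0613, and Irf7 averaged lower (-0.95, adjusted p 0.179).

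NPK against NP asks the same of NPK tumours with no stage given. In this comparison 3 of 33 genes rose and 0 fell, where 15% of all genes rose and 18.3% fell. Isg15 was 10.44 to 13.92 in NPK and 9.16 to 12.06 in NP (log2 change 1.70 ± 0.55 SE, adjusted p 0.0235). Ifi35 rose by 0.59 ± 0.21 (adjusted p 0.0350) and Lgals3bp by 0.63 ± 0.24 (adjusted p 0.0497). The call was lost in 21 of 31 other settings for Lgals3bp (change down to 0.25 with median scaling), 9 of 31 for Ifi35 and 7 of 31 for Isg15. For these 3 genes the groups overlapped, and for 0 of 33 did all NPK arrays lie above all NP samples (2.86% of all genes) or below them (5.22%). The median change over the 33 genes was 0.33, against -0.01 for all genes. With median scaling or with chip as a random block 0 genes rose. Rsad2 (1.25, adjusted p 0.0696), Gbp3 (0.93, adjusted p 0.0651) and Oas3 (1.16, adjusted p 0.0835) had changes that did not pass.

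NPK against NPK at 1 month compares the tumours with no stage given with the early ones, and 1 of 33 genes rose and 0 fell, where 10.8% of all genes rose and 10.4% fell. Lgals3bp was 14.11 to 15.08 in NPK, against 13.20, 13.49 and 14.27 in NPK_1Month (log2 change 1.03 ± 0.31 SE, adjusted p 0.0252), with overlap, and it did not pass with chip as a random block. For 0 of 33 genes did all NPK arrays lie above (9.94% of all genes) or below (9.81%) the NPK_1Month arrays. Irf7 had the largest change, 1.51 (adjusted p 0.0515). The median was 0.15 for the listed genes and -0.03 for all genes. The 4 comparisons share samples, so their values are not independent.

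**Figure D4:**
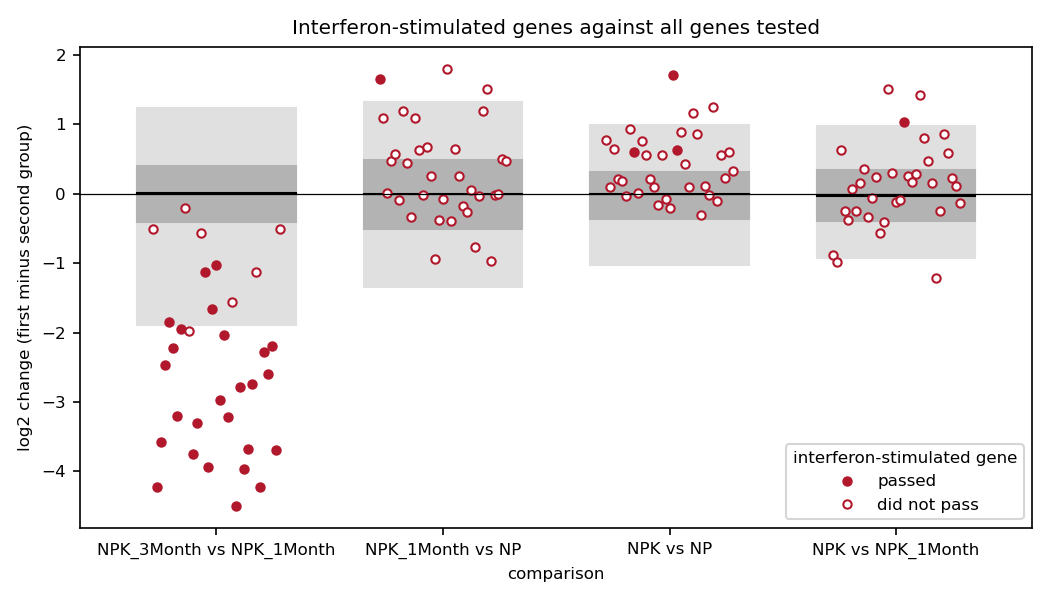
Log2 changes of the 33 genes in the 4 comparisons, named first group minus second (filled red points passed the test, open points did not), over grey boxes that span the 5th to 95th (light) and 25th to 75th (dark) percentile of all genes tested. The points of NPK_3Month against NPK_1Month lie between -4.50 and -0.21, and those of the other comparisons lie on both sides of 0.

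Genes upstream in the pathway were also compared between NPK and NP. Among all genes, 37.5% passed in either direction in NPK_1Month against NP and 33.3% in NPK against NP. In both comparisons the receptors, kinases and inhibitors passed at a share above that of all genes, and the sensors and adaptors at a share below it. The lists are short, and these shares were not tested. Of 10 receptors, kinases and inhibitors, 2 rose and 3 fell in NPK_1Month against NP: Jak2, a kinase of the type II receptor, by 1.13 and the feedback inhibitor Socs3 by 0.84 rose, while the receptor chain Il10rb (-1.98), the kinase Jak1 (-1.33) and Tyk2 (-0.45) fell. In NPK against NP, which shares the NP samples, 2 rose and 2 fell: Jak2 (0.62) and Socs3 (0.78), and Il10rb (-1.27) and Jak1 (-0.80). Of 17 sensors and adaptors, 1 rose and 2 fell in NPK_1Month against NP, among them Cgas, which detects cytosolic DNA (0.81), and Adar (-1.18). In NPK against NP 2 rose, Cgas (0.68) and the adaptor Ticam1 (0.90), and 2 fell. Irf8, of the same list, was at 5.96, 6.43 and 5.66 in NPK_1Month, at 6.95 to 8.00 in NPK and at 7.94 to 9.13 on the NP arrays. The interferon gene Ifna1 rose in NPK_1Month against NP (1.23, adjusted p 0.0025; detected on 3 of 3 and 1 of 8 arrays) and in NPK against NP (0.71, adjusted p 0.0151; detected on 3 of 8 and 1 of 8). Its level is close to the noise, and a probe for 1 member of this many-membered family may also bind RNA of its near-identical relatives.

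Within groups the 33 genes moved together from tumour to tumour. After the group means were removed, the correlation of each gene with the mean of the other listed genes over 20 samples had a median of 0.86, and 23 of 33 genes were above 0.8, as were 0.636% of all genes against the mean of the listed genes. Ifit3 was highest at 0.98 and Dhx58 next at 0.97, while Ifih1 (-0.14) and Iigp1 (0.38), both near the noise, were lowest. The points share their array, so a common shift of an array enters every gene, and no p is given. Outside the list the gene most like its mean was Irgm2, at 0.99, and 12 of the 20 most alike were in the pathway lists; these names were read from the ranking after the values were seen.

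**Figure D5:**
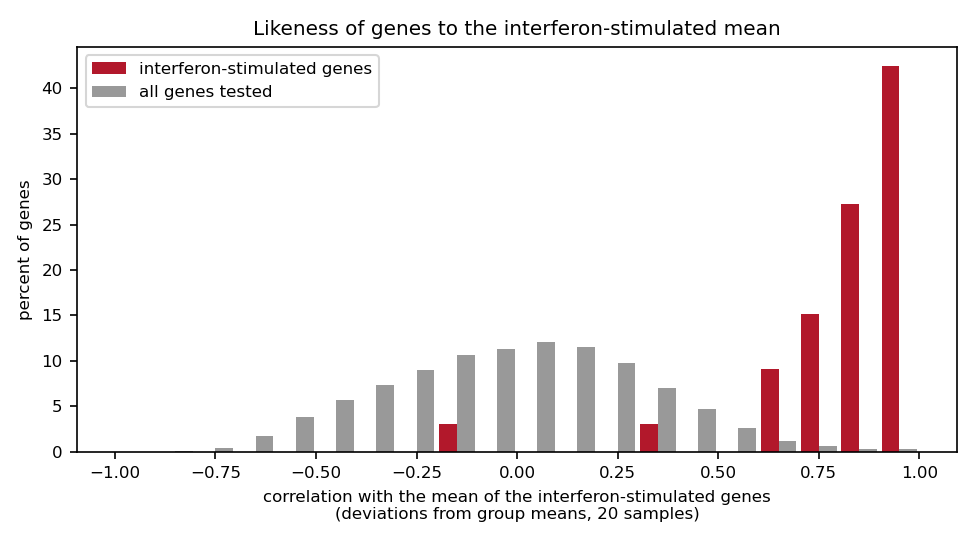
Share of genes, in percent, by correlation with the mean of the interferon-stimulated genes over 20 samples after group means were removed, for the 33 listed genes (red; each against the mean of the other 32) and all 12570 genes tested (grey). The red bars are mostly at the right, with a median of 0.86, and the grey bars centre on 0.00.

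The tumours of one group covered a wide range. The mean level of the 33 genes ran from 9.97 (replicate 5) to 11.53 (replicates 1 and 2) among the NPK arrays, and these extremes were on one chip, chip 3. In NP it ran from 9.36 in replicate 2 to 10.99 in replicate 3, again on one chip. Group means were 8.28 ± 0.34 in NPK_3Month (SD, n = 2), 10.75 ± 0.68 in NPK_1Month (n = 3), 10.86 ± 0.59 in NPK (n = 8) and 10.45 ± 0.55 in NP (n = 7). The last 3 groups lay within 1 SD of each other.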

How the data were processed

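Intensities were deposited as a table of linear bead intensity for 45126 probes on 21 arrays; values below 0 show that the authors subtracted background, and no normalization between arrays was seen. A second deposited table, on a log2 scale, gives values processed by the authors; its transform is unknown, the month arrays seem normalized apart from the others, and it served only as an alternative within each of these sets (NPK_3Month against NPK_1Month, and NPK against NP). BeadStudio and lumi are named in the submitters' processing notes without a version. RNA was amplified and biotin labelled, per the labels' protocols.

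From the intensities, a normal-exponential model with background mean 0 and noise SD from the values below 0 was fitted per array, 16 was added, and arrays were quantile normalized and put on a log2 scale. Control probes, planned for the background step, were not used here because the table names none. Probes above the noise level (probability 0.01) on at least 3 arrays were kept (24217), and the probe with the highest mean intensity stood for its gene. The platform annotation gave 34767 probes 1 symbol, 18 several and 10341 none; 65 gene IDs had no match in RefSeq.

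Groups came from titles and genotype labels. All 4 groups entered 1 fit (limma 3.58.1, R 4.3.3; lmFit and eBayes, 16 residual degrees of freedom), two-sided, Benjamini-Hochberg over 12570 genes, threshold 0.05. On simulated data 23.5% of genes changed by 1 and 81% of genes changed by 2 (log2) were recovered among 12570 genes for NPK_3Month against NPK_1Month. Alternatives changed the scaling, offset, detection filter, probe rule, values, weights, groups in the fit, chip and replicate blocks, and left out arrays or chips. Where a listed gene was undetected throughout 1 group and detected on every array of the other, a bound against the lowest detected signal is given. It holds for this processing only. Other genes undetected throughout 1 group get no fold. The number of arrays limits the precision.

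The members and lists were chosen with earlier results of these data known. All members are accounted for. Arrays are given singly for the member of each function group with the highest mean and with the smallest adjusted p at 3 months. They are also given for Isg15, added for its call in NPK against NP, and for Ifnlr1 and Irf8 of the pathway lists. Pathway genes are named by smallest adjusted p, at most 4 a list and comparison, beside Ifne, Socs3 in NPK against NP and the marker genes.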

Additional observations from a re-analysis of the deposited data

Results flagged for a closer look

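Over 68 groups of values (each of 33 genes in NP and NPK, and the mean of the genes), 10 held a sample that stood apart from the rest of its group by Dixon's test, which flags about 1 group in 20 by chance. All 10 were low values of NP replicate 2. Its log2 level was 9.13 for Irf7, 7.68 for Oasl1, 11.93 for Oasl2, 10.52 for Oas2, 5.32 for Oas3, 9.38 for Dhx58, 6.71 for Rtp4, 8.01 for Cmpk2, 9.44 for Gbp3 and 10.03 for Igtp. The nearest other NP sample was at 11.24 for Irf7 and at 12.74 for Oas2. The genes vary together between tumours, so these are not 10 independent flags. The 3-month arrays remained below NP replicate 2 for all 10 genes, but for Oas3 none of these values was detected. Without this sample 3 genes fell in NPK_1Month against NP and 0 rose in NPK against NP.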

How the results depend on the processing

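With 2 arrays at 3 months, 3 at 1 month and 1 chip for both, the fall at 3 months rests on few samples. Weak probes near the noise give a bound at most. The count of genes lower in NPK_3Month than in NPK_1Month was 26; it was 16 with the authors' processed values, all among the 26, 23 to 26 under the 10 other settings, and 19 to 27 when 1 array was left out, lowest without NPK_3Month replicate 1. The cause of the lower count with the authors' values was not tested. In every setting 0 genes were higher. The median of NPK_3Month replicate 1 stayed between -2.96 and -2.34 and that of replicate 2 between -2.27 and -1.92. Of 665 values for single genes 578 kept direction and side of the threshold, 84 lost their call, 1 gained it and 2 turned: the change of Ifih1 at 3 months ran from -0.43 to 0.0056 and that of Bst2 from -0.85 to 0.073 when 1 array was left out.

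In the other comparisons the few calls changed with the setting. In NPK_1Month against NP, 0 genes fell in the fit reported, 1 with median scaling or without chip 1, 4 with array weights and 0 to 3 with 1 array left out. In the same comparison 1 gene rose, against 0 with chip as a random block or without chip 2, 3 with array weights or with only the groups compared, 2 without chip 1 and 0 to 2 with 1 array left out. In NPK against NP, 2 genes fell with median scaling (0 reported), and 0 rose with median scaling, chip as a random block or without chip 2 (3 reported), 1 rose without chip 3, and 0 to 6 rose with 1 array left out, most without NPK replicate 5. In NPK against NPK_1Month, 0 to 1 genes fell with 1 array left out, and 1 gene rose in the fit reported, against 0 with median scaling, chip as a random block or without chip 4, 2 with an offset of 50, detection on 11 arrays or only the groups compared, 4 with array weights and 0 to 2 with 1 array left out.

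Median scaling moved the median change of all genes to 0.15 in NPK_3Month against NPK_1Month, -0.20 in NPK_1Month against NP, -0.38 in NPK against NP and -0.19 in NPK against NPK_1Month, and the share of lower among all calls to 33.6%, 69.9%, 87.8% and 73.1%, in that order, from 50.8%, 52.6%, 54.9% and 49.1%. The median of the listed genes at 3 months was then -2.23. The consensus correlation of arrays on a chip was 0.18.

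Replicate numbers did not pair the samples: deviations of same-numbered arrays correlated between -0.18 and 0.17, over 0.1 in 1 pair. With the replicate block 24 genes fell at 3 months, 0 genes rose in NPK_1Month against NP and 0 rose in NPK against NPK_1Month. The authors' values were not run across the month and other arrays, and leaving out a chip was not possible at 3 months, where both groups share 1 chip.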
